A study of Mus musculus with 4 samples.

Results

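The 10 genes described here encode granule proteins, alarmins and a growth factor receptor of neutrophils: *S100a8*, *S100a9*, *Ngp*, *Ltf*, *Camp*, *Mmp8*, *Mmp9*, *Retnlg*, *Chil1* and *Csf3r*. They are 10 of the 27998 gene rows in the count tables, and every member was present in all 4 libraries. Their transcripts were counted in barcodes with at least 1000 unique molecular identifiers (UMIs, which mark single captured molecules). Within those, a *Csf3r* gate took barcodes with at least 2 *Csf3r* UMIs and at most 1 UMI of the endothelial genes *Cldn5* and *Cdh5* together. The gate held 1291 of 30781 barcodes, with 238 of the 7701 mIgG1 barcodes, 236 of the 9144 Ang2 Ab barcodes, 423 of the 7777 Ctrl barcodes and 394 of the 6159 EC-Ang2 barcodes. Where 4 values follow each other, they are those of mIgG1, Ang2 Ab, Ctrl and EC-Ang2 in this order.

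All mice had experimental autoimmune encephalomyelitis (EAE), an autoimmune inflammation of the spinal cord (SC) induced with the myelin peptide MOG35-55 in complete Freund's adjuvant together with pertussis toxin. The blockade pair was wild-type C57Bl/6JOlaHsd mice aged 15 weeks that received either control mIgG1 or an angiopoietin-2 blocking antibody (Ang2 Ab) and were taken at 14 days after induction (dpi). The overexpression pair was C57Bl/6JCrl mice aged 12 to 14 weeks taken at 12 dpi. The paper gives a lower dose of pertussis toxin for this pair than for the wild-type mice. In EC-Ang2 mice, which carry the VE-cadherin-tTA and Tet-OS-Ang2 transgenes, endothelial cells (ECs) produce angiopoietin-2 once the doxycycline given until birth is withdrawn, and the Ctrl mice were littermates carrying only 1 of the transgenes. Live CD45+ leukocytes and CD31+ ECs were sorted in equal numbers and captured with 10x Chromium 3′ chemistry, so the proportion of any cell type also follows the sort. Each condition was 1 library, no source used here gives the number of mice pooled, and differences between libraries therefore had no replicate check and no test. Ranges in parentheses are 95% intervals (exact Poisson for levels, exact binomial for ratios and shares), and they cover counting error only. The libraries held 52084739 to 66631583 UMIs, and 62 to 112 barcodes of at least 1000 UMIs occurred in both libraries of any pair of libraries, none of them in the *Csf3r* gate of both, while 6, 14, 10 and 17 barcodes of the gate occurred in another library.

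Neutrophils fill their granules as they mature in the bone marrow. Primary granule proteins are made first, proteins of specific granules such as lactoferrin and cathelicidin follow, and gelatinase granule proteins come later, so that cells in blood and tissue normally carry little early granule message. S100A8 and S100A9 pair as calprotectin, which makes up much of the neutrophil cytosol and acts as an alarmin on Toll-like receptors when released. *Csf3r* is the receptor for granulocyte colony-stimulating factor (G-CSF), the main growth factor of the lineage. C/EBP family factors and PU.1 drive this program.

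The stretch before the transcription start is shown for the alarmin pair, whose levels were the highest of the members, and for the early granule genes *Ngp*, *Ltf* and *Camp*, which pick out the group of barcodes described further on. RefSeq (GRCm38.p6) and GENCODE give *S100a9* the same start, while the RefSeq start lies 93, 61, 21 and 161 bases downstream of the GENCODE start for *S100a8*, *Ngp*, *Ltf* and *Camp*. The sequences are therefore taken from RefSeq promoter entries and end before both starts, with 150 bases each and 89 for *Camp*, read 5′ to 3′ along the gene. A promoter entry matched 9 of the 10 members, *Mmp9* being the exception. Capitals mark matches to a C/EBP-type motif (TTGCNNAA or its reverse complement TTNNGCAA) and to a PU.1-type motif (GAGGAA or TTCCTC). The positions are chr3:90668828-90668977 on the plus strand for *S100a8*, chr3:90695722-90695871 on the minus strand for *S100a9*, chr9:110419597-110419746 on the plus strand for *Ngp*, chr9:111019121-111019270 on the plus strand for *Ltf*, and chr9:109849618-109849706 on the minus strand for *Camp*.
S100a8: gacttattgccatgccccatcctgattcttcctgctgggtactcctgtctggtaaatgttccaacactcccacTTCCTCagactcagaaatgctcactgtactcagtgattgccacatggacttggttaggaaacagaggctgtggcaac
S100a9: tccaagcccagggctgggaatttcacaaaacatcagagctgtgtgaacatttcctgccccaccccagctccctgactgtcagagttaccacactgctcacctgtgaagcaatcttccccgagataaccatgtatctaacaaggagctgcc
Ngp: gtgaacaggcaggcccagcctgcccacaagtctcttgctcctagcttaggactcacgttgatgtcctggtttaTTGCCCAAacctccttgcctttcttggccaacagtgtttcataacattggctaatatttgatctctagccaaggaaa
Ltf: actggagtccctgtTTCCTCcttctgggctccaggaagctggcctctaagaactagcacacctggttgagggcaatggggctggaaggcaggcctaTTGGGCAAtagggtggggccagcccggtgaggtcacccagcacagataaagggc
Camp: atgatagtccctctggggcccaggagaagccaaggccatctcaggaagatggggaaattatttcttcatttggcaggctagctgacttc
Counted from the RefSeq start, the marked matches begin 170 bases before it in *S100a8*, 138 bases before it in *Ngp*, and 157 and 75 bases before it in *Ltf*. Closer to that start, beyond the stretches shown, *S100a8* held a TTCCTC 36 bases before it with a TATAAA directly after, and *Ngp* held a TTGGGCAA 11 bases before it. Over 250 bases before the RefSeq start, a C/EBP-type match was found in 5 of 9 members (*S100a9*, *Ngp*, *Ltf*, *Mmp8* and *Retnlg*) and in 9.56% of 32851 RefSeq promoters. A PU.1-type match was found in 4 of 9 (*S100a8*, *Ltf*, *Mmp8* and *Csf3r*) against 23.3% of all, and TATAAA or TTTATA in 1 of 9 (*S100a8*) against 12.4%. A match is a description of the letters only. The start sites of *S100a8* and *S100a9* lie 26.7 kb apart on opposite strands of chromosome 3 (GENCODE annotation of GRCm38, the mm10 assembly the submitters name). *Camp*, *Ngp* and *Ltf* lie in that order on chromosome 9, with 570.1 kb between the starts of *Camp* and *Ngp* and 599.5 kb between those of *Ngp* and *Ltf*.

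The *Csf3r* gate was not made of neutrophils alone, and the mixture differed between libraries. *S100a8* and *S100a9* together reached 1% of a barcode's UMIs in 18.9%, 43.2%, 47.0% and 69.0% of the gated barcodes, and stayed under 0.1% in 76.5%, 39.8%, 42.1% and 20.6%. In the barcodes at or above 1%, *Cxcr2*, the chemokine receptor of mature neutrophils that the gate did not use, was at 376 to 744 CPM (UMIs of the gene per 1000000 UMIs, over the summed barcodes). In those under 1% *Cxcr2* was at 2.68 to 55.4 CPM, while *Csf1r*, the growth factor receptor of monocytes and macrophages, was at 537 to 1535 CPM. *Csf1r* was also present at or above 1%, with 245, 245, 587 and 155 CPM, as was the macrophage gene *C1qa*, with 2199, 818, 2623 and 121 CPM, so barcodes rich in alarmin message held transcripts of other cells as well. Their median depth also differed, with 1562 to 2837 UMIs per barcode at or above 1% and 6260 to 9848 under 1%. A list of 9 monocyte and macrophage markers summed to 16152, 13675, 16925 and 7200 CPM over the gate, and a list of 10 neutrophil markers that holds no member summed to 427, 1224, 2054 and 3917 CPM. In a T cell gate (2 or more UMIs of *Cd3d*, *Cd3e* and *Cd3g*) the neutrophil list summed to 395, 563, 477 and 616 CPM. The list is thus not particular to neutrophils, and its mIgG1 sum was near that of T cells. The barcodes are therefore called by their rule, the *Csf3r* gate, and each result is also given with a limit of at most 1 UMI of *Csf1r*, *Ms4a7*, *P2ry12*, *Tmem119*, *Cd3d*, *Cd3e* and *Cd3g* together.

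**Figure D1:**
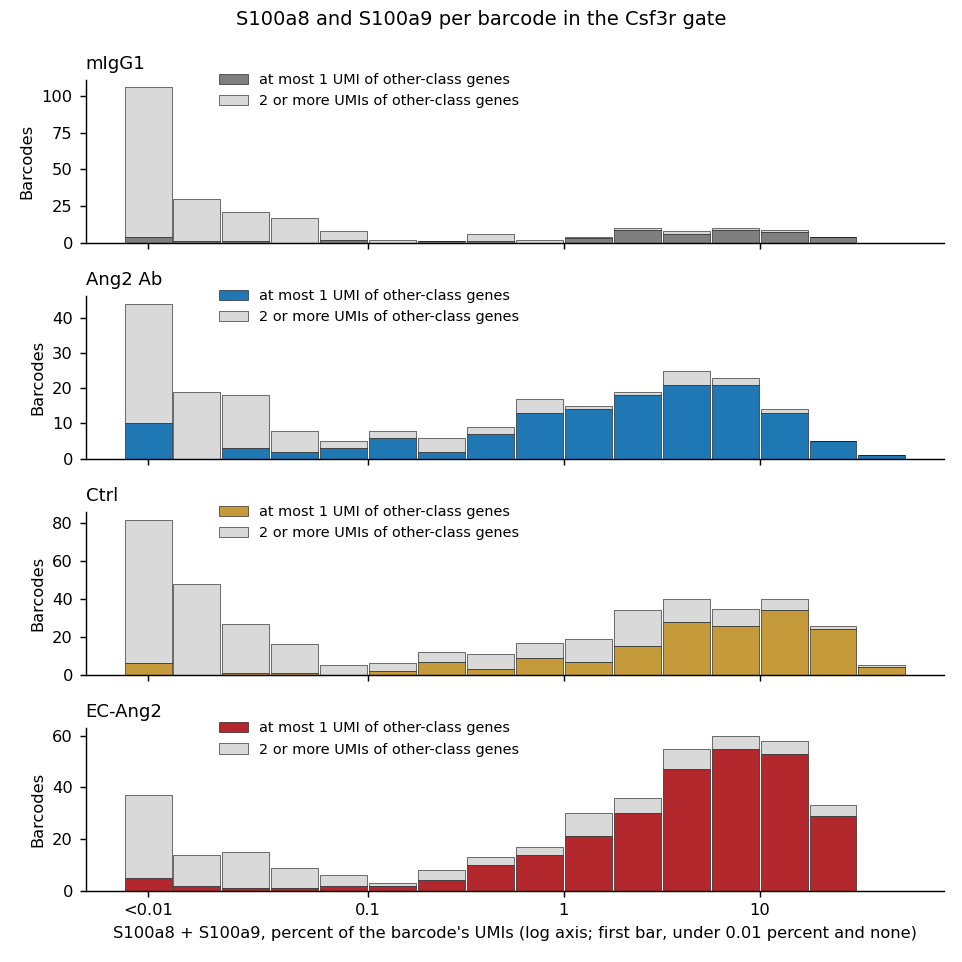
Histograms of the barcodes of the *Csf3r* gate by the share of their UMIs from *S100a8* and *S100a9* (horizontal log axis, percent), with the number of barcodes on the vertical axis and 1 panel per library. Colored bars are barcodes with at most 1 UMI of the macrophage, microglia and T cell genes and gray bars those with 2 or more; in each library the colored bars lie mostly above 1% and most gray bars lie below 0.1%.

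The limit kept 48, 139, 167 and 276 barcodes, which were 20.2%, 58.9%, 39.5% and 70.1% of the gate. *S100a8* and *S100a9* reached 1% of the UMIs in 66.9% to 85.1% of them. The limit also left out barcodes at or above 1%, namely 7, 9, 61 and 37 of the 45, 102, 199 and 272 in the gate. This loss was uneven between libraries, so shares and levels with the limit are not those of all alarmin-rich barcodes of the gate. Neutrophil markers summed to 5267, 4009, 8298 and 8043 CPM with the limit and the 9 monocyte and macrophage markers to 3207, 1903, 1683 and 1311 CPM, although the limit itself uses *Csf1r* and *Ms4a7*. In this limited gate 9 or 10 of the 10 neutrophil markers had a UMI, with *Mmp25* at 0 in mIgG1 and *Ly6g*, the usual surface marker of mouse neutrophils, at 0 in Ang2 Ab. Median depth was 1562 to 2317 UMIs per barcode with the limit and 8138 to 10093 UMIs over it. The limited gate made up 0.623% (0.460% to 0.826%) of the mIgG1 barcodes and 1.52% (1.28% to 1.79%) of the Ang2 Ab barcodes. It made up 2.15% (1.84% to 2.49%) of the Ctrl barcodes and 4.48% (3.98% to 5.03%) of the EC-Ang2 barcodes. The whole gate was 3.09%, 2.58%, 5.44% and 6.40%, so the order of mIgG1 and Ang2 Ab turned with the limit.

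Around the threshold on *Csf3r*, *S100a8* was higher on the inside than on the outside in each library. Among barcodes with at most 1 *Cldn5* or *Cdh5* UMI, *S100a8* was at 417, 947, 1398 and 1072 CPM with no *Csf3r* UMI, at 959, 3244, 6240 and 5576 CPM with 1, just outside the gate, and at 1856, 7230, 11520 and 12452 CPM with 2, just inside it. Barcodes with 4 or more *Csf3r* UMIs reached 4204, 7693, 18925 and 33390 CPM. *S100a8* and *S100a9* reached 1% of the UMIs in 2.66%, 5.76%, 4.06% and 6.17% of 2296, 3002, 2239 and 2106 barcodes with no *Csf3r* UMI. They did so in 8.38%, 23.5%, 18.7% and 31.4% of 561, 612, 598 and 522 barcodes with 1. Barcodes rich in alarmin message thus also lay outside the gate, and its shares and levels are not those of all neutrophils. The gate held 22.9%, 18.8%, 38.4% and 38.2% of all *S100a8* UMIs of the 4 libraries, and other barcodes of at least 1000 UMIs held 50.4% to 65.8%. Those other barcodes had 14616, 34325, 57432 and 46127 *S100a8* UMIs. Of these, 9096, 24913, 44009 and 36286 lay in barcodes placed in no single cell class. The monocyte or macrophage gate described below had 4399, 4645, 5095 and 5914.

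*S100a8* and *S100a9* were the members with the highest levels in each library. With the limit *S100a8* stood at 35502 CPM (34378 to 36653) in mIgG1 and at 28178 CPM (27585 to 28780) in Ang2 Ab. In the overexpression pair it stood at 57910 CPM (57226 to 58599) in Ctrl and at 41228 CPM (40751 to 41710) in EC-Ang2. *S100a9* stood at 19731, 17964, 47528 and 32058 CPM. The Ctrl library was highest and the Ang2 Ab library lowest for both. Over the whole gate the order was another, with *S100a8* at 2421, 7481, 13718 and 19579 CPM and *S100a9* at 1352, 4730, 10840 and 14679 CPM, so that EC-Ang2 was highest and mIgG1 lowest. Within the limited gate the share of a barcode's UMIs from the alarmin pair ran from none up to 25.2%, 35.3%, 38.5% and 30.4%, with medians of 3.75%, 2.41%, 6.00% and 5.57%.

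**Figure D2:**
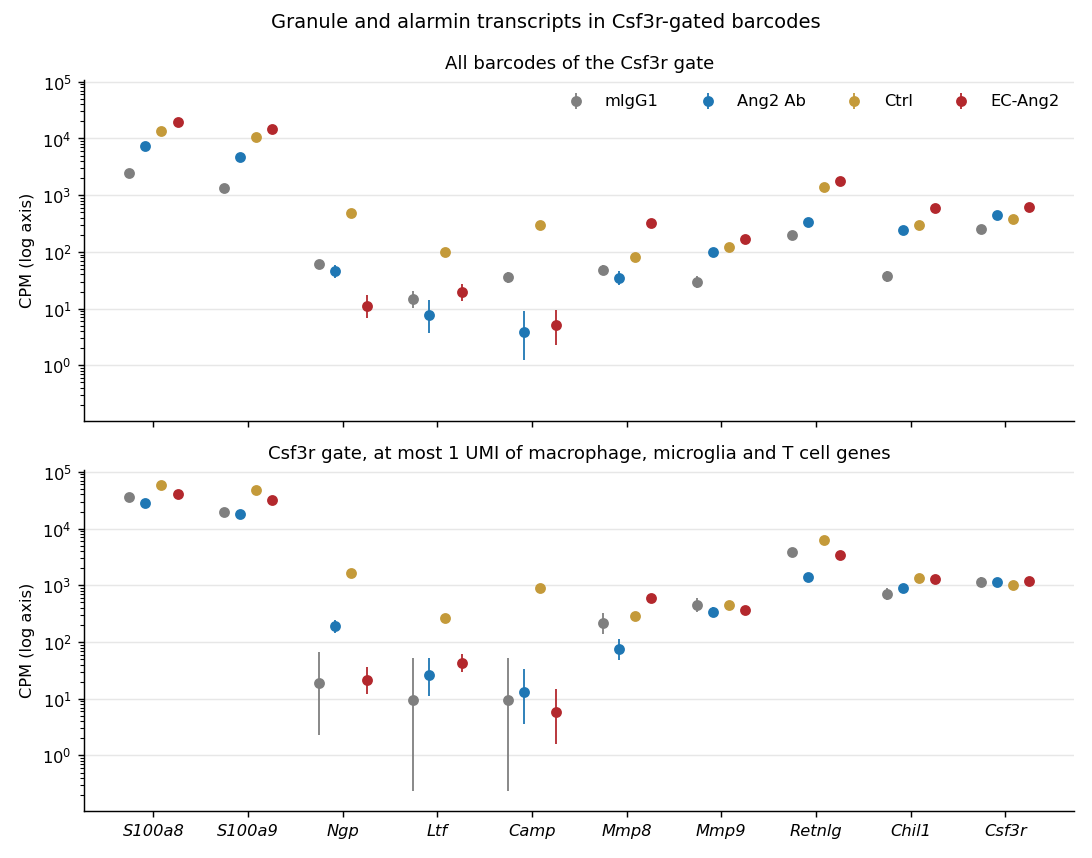
Level of each member (CPM, log axis) in the *Csf3r* gate (top) and in the gate with the limit on other-class genes (bottom), with 1 point per library and bars for the exact 95% counting interval. *S100a8* and *S100a9* lie highest in both panels, and *Ngp*, *Ltf* and *Camp* are highest in Ctrl.

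*Ngp*, *Ltf* and *Camp*, which encode a cystatin-like granule protein, the iron-binding lactoferrin and the antimicrobial cathelicidin, were low in most gated barcodes and very high in a few. Over the gate *Ngp* was at 60.7, 45.8, 484 and 11.2 CPM, *Ltf* at 14.8, 7.63, 99.3 and 19.7 CPM, and *Camp* at 35.6, 3.82, 301 and 5.06 CPM. With the limit *Ngp* was at 18.8, 190.3, 1679 and 21.7 CPM, *Ltf* at 9.40, 26.2, 264 and 43.4 CPM, and *Camp* at 9.40, 13.1, 914 and 5.78 CPM, where mIgG1 had 2, 1 and 1 UMIs. Ctrl was highest for all 3 genes either way, and the order of mIgG1 and Ang2 Ab turned with the limit. The sums rested on few barcodes: an *Ngp* UMI was found in 3, 3, 26 and 7 barcodes of the gate, and a *Camp* UMI in 2, 2, 10 and 6. In mIgG1 1 barcode held 141 of the 143 *Ngp* UMIs, 31 of 35 *Ltf* UMIs and 83 of 84 *Camp* UMIs of the gate. That barcode had 20949 UMIs, among them 91 UMIs of the macrophage gene *C1qa*, it lay over the limit, and its barcode sequence occurred in another library as well. In Ang2 Ab 1 barcode of 10015 UMIs held all 58 *Ngp* UMIs of the limited gate, together with 2257 of its 8588 *S100a8* UMIs. In Ctrl 1 barcode of 18410 UMIs held 676 of 795 *Ngp* UMIs and 427 of 433 *Camp* UMIs of the limited gate. Barcodes with 2 or more UMIs of the 3 genes together were 0.840% (0.102% to 3.00%), 1.27% (0.263% to 3.67%), 4.96% (3.10% to 7.49%) and 2.54% (1.22% to 4.62%) of the gate. In ECs, which should lack these transcripts, the share was 0 to 0.0784%, at a median depth of 3246 to 5830 UMIs against 2498 to 8414 in the gate. After thinning each barcode to 1000 UMIs the shares of the gate were 0.840%, 0.424%, 2.13% and 1.02%, and those of ECs were 0 in every library, which allows up to 0.0698% to 0.115%.

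Across all barcodes of at least 1000 UMIs, 36 had 10 or more UMIs of *Ngp*, *Ltf* and *Camp* together. The libraries held 3, 8, 21 and 4 of them, which is 0.0390% (0.00803% to 0.114%), 0.0875% (0.0378% to 0.172%), 0.270% (0.167% to 0.412%) and 0.0649% (0.0177% to 0.166%) of the barcodes. These 36 barcodes held 13563 of the 14485 UMIs of the 3 genes in barcodes of that depth, or 93.6%. Most were outside the *Csf3r* gate: 10 of 36 were in it, and 7 with the limit. *Csf3r* itself had a median of 1 UMI in them and none in 10 of the 36. The 3 genes chose these barcodes, so their own levels there are a description.

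The barcodes differed by how much of the early granule message they held. The 16 with 200 or more UMIs had *Ngp* at 33942 CPM, *Camp* at 22840 CPM and *Ltf* at 7975 CPM. The 8 with 50 or more but under 200 UMIs had *Ngp* at 11248, *Camp* at 3285 and *Ltf* at 2946 CPM, and the 12 with 10 to 49 UMIs had *Ngp* at 4492, *Camp* at 362 and *Ltf* at 114 CPM, so the sum of the lowest class was nearly all *Ngp*. Members and genes that did not choose the barcodes also differed along these classes. From the highest to the lowest class the median depth was 9584, 5975 and 4448 UMIs, and the classes drew unevenly on the libraries. Depth, library and early granule message were not separated, and the part of each in the differences below was not tested. *Retnlg*, a resistin-like secreted protein, was at 6421, 25880 and 35689 CPM from the highest to the lowest class. The collagenase gene *Mmp8* was at 521, 1493 and 1732 CPM and the gelatinase gene *Mmp9* at 448, 1075 and 1085 CPM. *Lcn2*, the iron-siderophore binding protein of specific granules, was at 9669, 8998 and 5349 CPM, and *Chil3* at 4608, 2011 and 324 CPM. *Cebpe*, the transcription factor required for specific granules, had 35 UMIs in the highest class, 1 in the next and 0 in the lowest. *S100a8* was at 138707, 156195 and 158879 CPM, which differed less than the other genes named here. The primary granule genes *Mpo*, *Elane* and *Ctsg* and the proliferation gene *Mki67* had no UMI in any of the 36 barcodes, whose classes held 191858, 50232 and 52537 UMIs, while *Prtn3* had 13 UMIs in 3 barcodes and the proliferation gene *Top2a* 6 UMIs in 2.

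**Figure D3:**
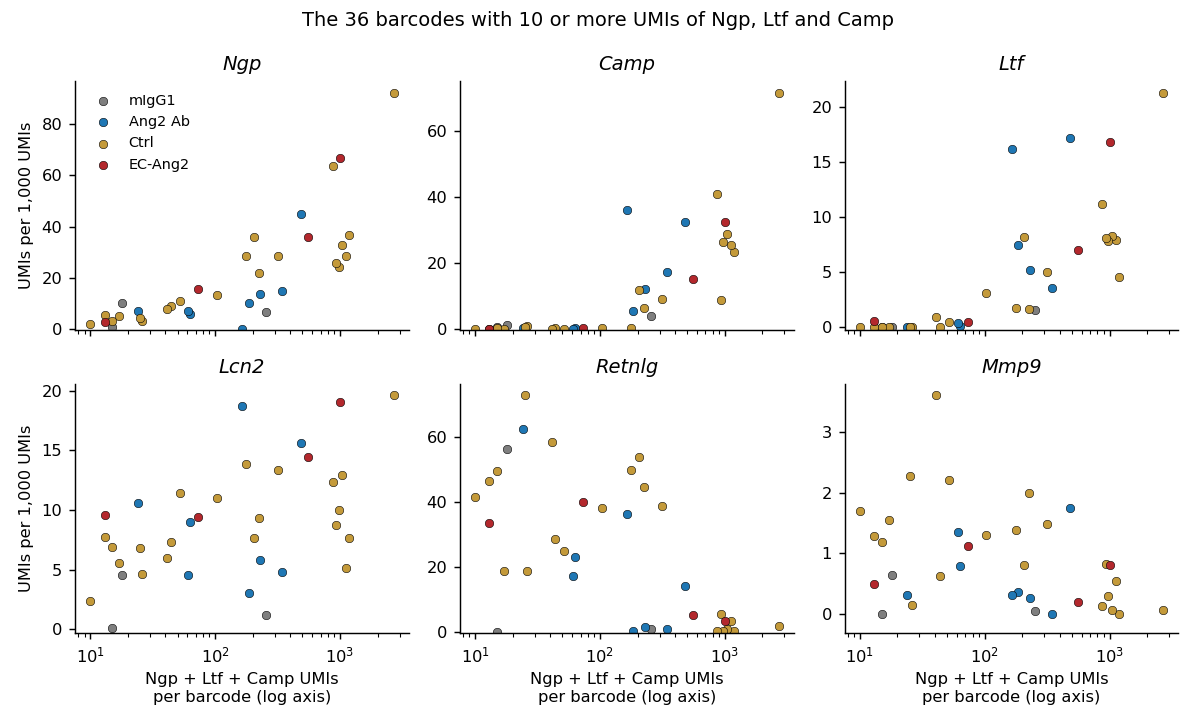
UMIs of 6 genes per 1000 UMIs of the barcode (vertical axes) against the summed *Ngp*, *Ltf* and *Camp* UMIs of the barcode (log axis) for the 36 barcodes with 10 or more, colored by library. *Retnlg* lies highest toward the left and *Camp* and *Ltf* toward the right, and 21 of the points are Ctrl.

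Some of these barcodes also held transcripts of other cells. *C1qa* had a UMI in 19 of the 36, with up to 91 in 1 barcode. Depth reached 21827 UMIs in a Ctrl barcode that also held 67 *C1qa* and 24 *Csf1r* UMIs. In Ang2 Ab a barcode of 9572 UMIs in the T cell gate held 143 *Ngp*, 166 *Camp* and 34 *Ltf* UMIs. It also held 639 of the 738 *S100a8* and *S100a9* UMIs of that gate, whose level was 728 CPM with this barcode and 98.6 CPM without. Of the 16 barcodes with 200 or more UMIs of the 3 genes, 5 had a *Csf1r* count of 4 to 11, 1 had 24 and 10 had at most 1.

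*Mmp8* and *Mmp9* encode proteases that cut fibrillar collagen and the denatured and basement membrane collagens. With the limit *Mmp8* was at 216 CPM (137 to 325) in mIgG1 and at 75.5 CPM (47.8 to 113) in Ang2 Ab. It was at 285 CPM (239 to 337) in Ctrl and at 589.8 CPM (534 to 649.9) in EC-Ang2. EC-Ang2 was highest and Ang2 Ab lowest, and the intervals overlapped in neither pair. The blockade values rested on 23 UMIs in mIgG1 and 23 in Ang2 Ab, from 11 and 15 barcodes. The lower value of Ang2 Ab depended on the gate, as given below. An *Mmp8* UMI was found in 22.9%, 10.8%, 21.0% and 39.5% of the barcodes, against 0.418% to 2.18% of ECs. Over the whole gate *Mmp8* was at 48.4, 35.1, 82.7 and 324 CPM. *Mmp9* was at 451 CPM (333 to 599), 341 CPM (279 to 413), 458 CPM (399 to 523) and 367 CPM (323 to 415) with the limit, and these intervals overlapped between the libraries of each pair. Over the whole gate *Mmp9* was at 29.7, 99.2, 121 and 169 CPM.

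*Retnlg* and *Chil1*, the latter a chitinase-like protein of specific granules, were well above the other barcodes in each library. With the limit *Retnlg* was at 3818 CPM (3456 to 4208), 1394 CPM (1265 to 1534), 6193 CPM (5970 to 6421) and 3475 CPM (3338 to 3617). It was found in 35.4%, 37.4%, 65.9% and 64.9% of the barcodes, so the libraries of a pair were near each other in the share of barcodes and apart in the level. In Ang2 Ab 232 of 425 *Retnlg* UMIs came from the barcode that also held the *Ngp* UMIs. *Chil1* was at 705, 879, 1368 and 1276 CPM with the limit and at 36.9, 239, 302 and 607 CPM over the gate. *Csf3r*, which the gate used, was at 1166, 1139, 1005 and 1177 CPM with the limit and at 249, 446, 379 and 625 CPM over the gate, given here as a description. Of the 9 members other than *Csf3r*, a limited barcode held a UMI of 4, 3, 4 and 4 at the median, and 5 or more were found together in 22.9%, 9.35%, 41.3% and 42.4% of barcodes. In the endothelial gate 5 or more were found in 0% to 0.235%.

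The ratio of *S100a8* to *S100a9* differed between classes of barcodes. In barcodes of 1 to 100 UMIs, taken as empty droplets, *S100a8* was counted 1.42, 1.45, 1.17 and 1.36 times for each *S100a9* UMI. In the limited gate the ratio was 1.80 (1.71 to 1.90), 1.57 (1.52 to 1.62), 1.22 (1.20 to 1.24) and 1.29 (1.26 to 1.31). In barcodes gated as monocyte or macrophage (3 or more UMIs of *Csf1r*, *Fcgr1*, *Ccr2* and *Ms4a7* with at most 1 *Csf3r* UMI) it was 3.26 (3.07 to 3.47), 1.99 (1.90 to 2.097), 1.46 (1.40 to 1.52) and 2.69 (2.56 to 2.83). In those of them with no UMI of *Cxcr2*, *Retnlg*, *Chil1* or *Mmp9* it was 4.96 (4.55 to 5.41), 4.15 (3.74 to 4.62), 2.43 (2.16 to 2.73) and 6.40 (5.82 to 7.04). In the endothelial gate it was 1.85, 2.01, 1.26 and 1.59. A single barcode held 21.9%, 19.8%, 40.9% and 7.45% of the *S100a8* and *S100a9* UMIs of the monocyte or macrophage gate. In the endothelial gate a single barcode held 13.4%, 13.8%, 14.8% and 10.6%, and the intervals do not cover such uneven sharing. Among these 5 classes the monocyte or macrophage barcodes without neutrophil transcripts had the highest ratio in each library, and their interval overlapped none of the other 4. Barcodes that met the macrophage rule and also held 2 or more UMIs of *P2ry12* and *Tmem119* were not among the 5. Their ratio was 4.83 (3.71 to 6.35), 3.455 (2.95 to 4.06), 1.42 and 1.96, and the intervals overlapped in mIgG1 and Ang2 Ab. The class without neutrophil transcripts is a part of the monocyte or macrophage gate. It was made by leaving out barcodes with neutrophil transcripts, which carry the lower ratio of the *Csf3r* gate. The rule that made it therefore also bears on its ratio. Of its 1578, 1491, 746 and 1187 barcodes, 507, 540, 244 and 755 held 10 or more UMIs of the monocyte gene *Ly6c2*. Its *S100a8* and *S100a9* UMIs were 220 and 18 with no *Ly6c2* UMI and 1758 and 466 with 10 or more in mIgG1. In Ang2 Ab they were 322 and 120, and 713 and 130. The ratio thus varied within the class, lower with more *Ly6c2* in mIgG1 and higher in Ang2 Ab. If the EC genes *Flt1*, *Slco1a4*, *Spock2*, *Ptprb*, *Abcb1a* and *Cxcl12* counted in that class are taken as free RNA, free RNA would give 6.19%, 18.8%, 36.01% and 21.8% of its *S100a8* level and 21.6%, 54.1%, 74.6% and 102% of its *S100a9* level. In the endothelial gate the interval lay above that of the empty droplets in mIgG1, Ang2 Ab and EC-Ang2, with lower bounds of 1.63, 1.89 and 1.497 against upper bounds of 1.52, 1.52 and 1.42.

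**Figure D4:**
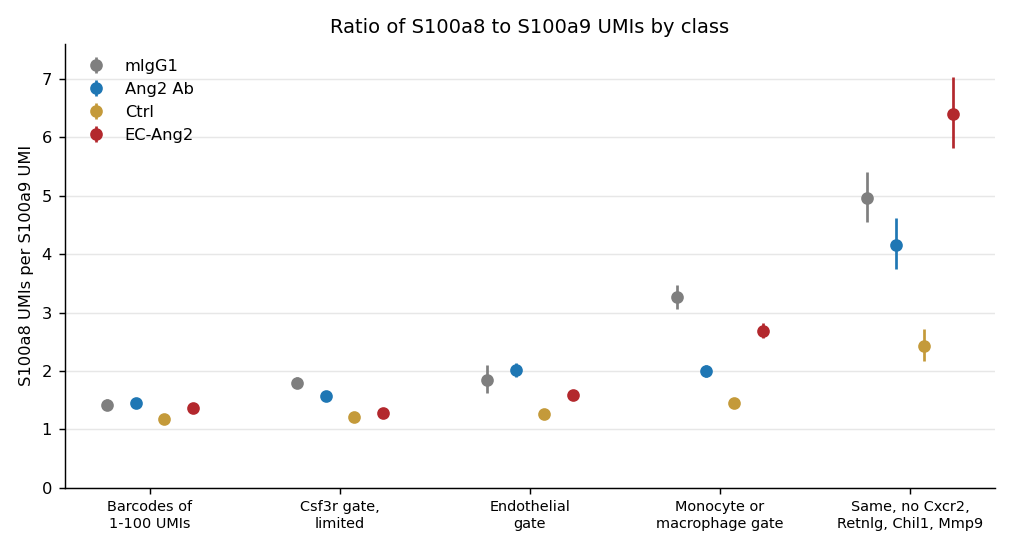
*S100a8* UMIs per *S100a9* UMI (vertical axis, from 0) in 5 classes of barcodes, with 1 point per library and bars for the exact 95% counting interval. Monocyte or macrophage barcodes without neutrophil transcripts lie at 2.43 to 6.40, above the 1.17 to 1.45 of barcodes with 1 to 100 UMIs.

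The difference was also seen barcode by barcode. In the monocyte or macrophage gate 54.0%, 49.7%, 38.7% and 64.4% of barcodes had an *S100a8* UMI, and 8.25%, 20.04%, 29.3% and 34.7% an *S100a9* UMI. In ECs these shares were 9.80%, 20.1%, 27.0% and 37.1% for *S100a8* and 5.95%, 11.7%, 23.9% and 25.4% for *S100a9*, at a median depth of 3246 to 5830 UMIs against 5640 to 8080. At 1000 UMIs a barcode the macrophage gate had *S100a8* in 15.5%, 14.6%, 14.6% and 17.9% and ECs in 1.77%, 6.17%, 7.79% and 7.75%. At that depth *S100a9* was in 1.89%, 5.83%, 8.93% and 6.73% of the macrophage gate and in 1.29%, 3.58%, 7.06% and 4.66% of ECs, so the shares of the macrophage gate were above those of ECs for both genes, and by more for *S100a8*. At least 2 *S100a8* UMIs without *S100a9* were found in 27.6%, 16.2%, 7.50% and 23.0% of monocyte or macrophage barcodes, and the reverse in 0.122%, 0.951%, 2.86% and 1.66%. *Mmp8* was in the same gate at 69.1, 41.9, 29.9 and 115 CPM and in ECs at 0.758 to 3.90 CPM, with a UMI in 23.5%, 13.6%, 10.2% and 31.3% of monocyte or macrophage barcodes. In those with no UMI of *Cxcr2*, *Retnlg*, *Chil1* or *Mmp9* it stood at 67.6, 40.4, 28.1 and 107 CPM. *Mmp8* was lower in Ang2 Ab than in mIgG1 and higher in EC-Ang2 than in Ctrl in this class as well as in the limited *Csf3r* gate. *Retnlg*, *Chil1* and *Mmp9* were at most 47.0 CPM in the monocyte or macrophage gate, with a UMI in 0.733% to 6.79% of its barcodes.

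The blockade pair asked what changed in the cells of the SC when angiopoietin-2 was blocked. Over the *Csf3r* gate 6 of 10 members were at least 1.5-fold higher in Ang2 Ab than in mIgG1, where 12.5% of 8204 genes with 20 or more UMIs were, and 2 of 10 were lower, where 9.59% were. The 6 were *S100a8* (log2 ratio 1.63, 1.58 to 1.68), *S100a9* (1.81), *Mmp9* (1.74), *Retnlg* (0.80), *Chil1* (2.69) and the gate gene *Csf3r* (0.84). The gate required *Csf3r*, so its ratio is a description only, while the member counts and medians of both pairs include it. Median depth over the gate was 8414 UMIs in mIgG1 and 2871 UMIs in Ang2 Ab. The 2 lower members were *Ltf* (−0.96, −2.14 to 0.08, 10 against 35 UMIs) and *Camp* (−3.22, 5 against 84 UMIs), and both rested on the mIgG1 barcode named above. Without barcodes that libraries share, which leaves that barcode out, *Ltf* was at 2.25 and *Camp* at 3.25. The mIgG1 barcode held 31 of the 35 *Ltf* and 83 of the 84 *Camp* UMIs. Both of these values therefore rested on fewer than 20 UMIs and do not count as tested. The median over the members was 0.82 and that over all genes tested 0.03. With the limit 1 of 8 members tested was higher (18.3% of 2320 genes) and 2 were lower (16.6%), and the median was −0.23 over the 8 and −0.09 over all 10, against −0.04 for all genes. *S100a8* was then at −0.33 (−0.39 to −0.28), *S100a9* at −0.14 (−0.21 to −0.06), *Mmp9* at −0.40 and *Chil1* at 0.32, all under 1.5-fold. The member that was higher was *Ngp* (3.34, 1.42 to 6.42, 58 against 2 UMIs), from the 1 Ang2 Ab barcode. The 2 that were lower were *Mmp8* (−1.52, −2.42 to −0.62) and *Retnlg* (−1.45, −1.65 to −1.25), and without barcodes of 10 or more UMIs of *Ngp*, *Ltf* and *Camp* they were at −1.60 and −2.54 and *S100a8*, at −0.725, was lower by 1.5-fold as well. With a gate on 2 or more UMIs of *Cxcr2* and *Il1r2* together in place of *Csf3r*, *Mmp8* was at 0.0040, and at −0.06 with the limit as well, so the lower *Mmp8* of Ang2 Ab depended on the gate. Over the *Csf3r* gate the 9 monocyte and macrophage markers were at 16152 CPM for mIgG1 against 13675 CPM for Ang2 Ab, and with the limit at 3207 against 1903 CPM, and their part in these differences was not tested.

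The overexpression pair asked the same of ECs that overproduce angiopoietin-2. Over the *Csf3r* gate 3 of 10 members were at least 1.5-fold higher in EC-Ang2 than in Ctrl, where 8.71% of 8900 genes were, and 3 of 10 were lower, where 32.1% were. *Mmp8* (log2 ratio 1.97, 1.76 to 2.19), *Chil1* (1.01, 0.88 to 1.13) and the gate gene *Csf3r* (0.72) were higher, and *Ngp* (−5.43), *Ltf* (−2.33) and *Camp* (−5.90) lower. As in the blockade pair, *Csf3r* is counted though the gate required it. Median depth over the gate was 5335 UMIs in Ctrl and 2498 UMIs in EC-Ang2. *S100a8* was at 0.51, *S100a9* at 0.44, *Mmp9* at 0.48 and *Retnlg* at 0.29. The median of all genes tested was −0.26, and relative to it 6 members were higher, where 16.7% of genes were, 3 were lower, where 21.9% were, and the median of the members was 0.72 in place of 0.46. With the limit 1 of 10 was higher (24.5% of 3868 genes) and 4 were lower (6.49%), and the median of the members was −0.53 against 0.23 for all genes. The higher member was again *Mmp8* (1.05, 0.76 to 1.34), and the lower were *Ngp* (−6.27), *Ltf* (−2.61), *Camp* (−7.30) and *Retnlg* (−0.83, −0.91 to −0.76). *S100a8* at −0.49 and *S100a9* at −0.57 were just under 1.5-fold lower. Without barcodes of 10 or more UMIs of *Ngp*, *Ltf* and *Camp*, *Ngp* was at −3.51, *Ltf* at −1.05, *Camp* at 0.35 and *Mmp8* at 1.41. The *Camp* value then rested on fewer than 20 UMIs and does not count as tested. The barcodes left out were chosen by the counts of *Ngp*, *Ltf* and *Camp* themselves, so the values of these genes are a description. The gate on *Cxcr2* and *Il1r2* gave 1 member higher, where 6.26% of genes were, and 6 lower, where 14.3% were, with *Mmp8* at 1.07, or 0.76 with the limit as well, and *Ngp* at −3.06. The 9 monocyte and macrophage markers were at 16925 CPM for Ctrl against 7200 CPM for EC-Ang2 over the gate and at 1683 against 1311 CPM with the limit, and their part in these differences was not tested.

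**Figure D5:**
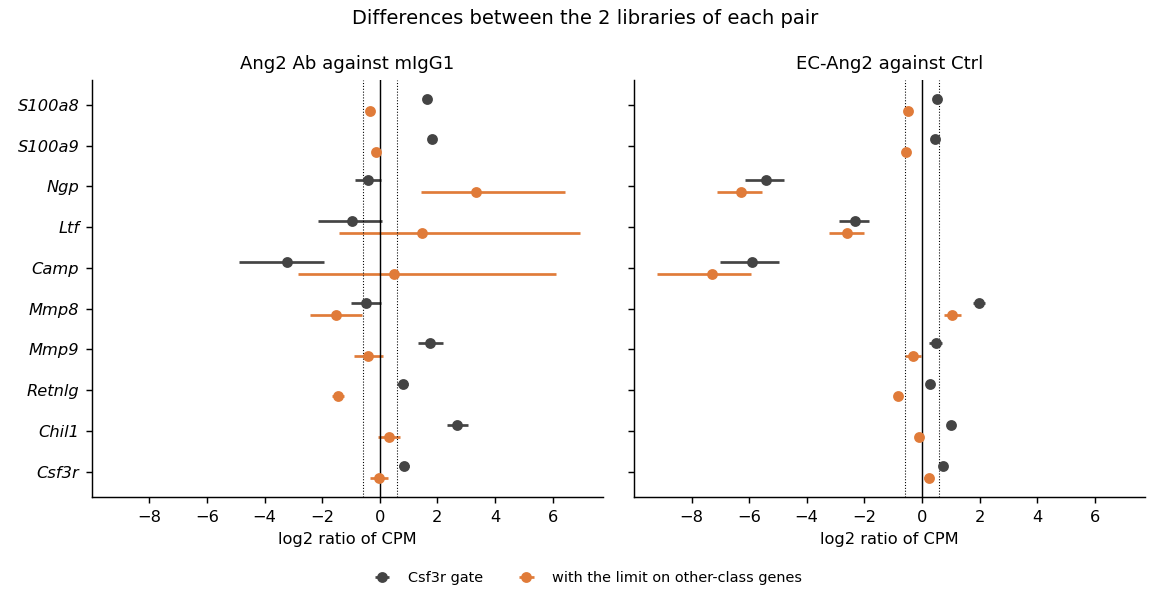
Log2 ratio of CPM for each member in the blockade pair (left) and the overexpression pair (right), in the *Csf3r* gate (dark) and with the limit on other-class genes (orange), with exact 95% counting intervals, a solid line at 0 and dotted lines at 1.5-fold. *S100a8*, *S100a9*, *Mmp9* and *Retnlg* lie above 0 over the gate and below 0 with the limit in both pairs, while *Mmp8* in the overexpression pair lies above 1.5-fold in both.

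Other genes of the same program were counted by lists, to be read against the shares of all genes given above, which were 18.3% higher and 16.6% lower in Ang2 Ab and 24.5% higher and 6.49% lower in EC-Ang2 with the limit, and 12.5%, 9.59%, 8.71% and 32.1% without it. With the limit, none of 12 other specific granule and secretory genes tested was at least 1.5-fold higher in Ang2 Ab and 3 were lower (*Lyz2*, *Chil3* and *Ifitm6*), with a median log2 ratio of −0.25 against −0.04 for all genes. In the overexpression pair 1 of 13 was higher (*Chil3*) and 4 were lower, with a median of 0.02 against 0.23. *Chil3*, a chitinase-like lectin also made by macrophages, was at 2831, 1362, 439 and 3942 CPM, the widest spread in the list among its 4 most abundant genes. Outside the *Csf3r* gate *Chil3* was at 990, 900, 214 and 2208 CPM over all other barcodes of at least 1000 UMIs. In the endothelial gate it was at 66.1, 53.3, 7.28 and 78.4 CPM, so EC-Ang2 was above Ctrl there as well. *Lyz2*, the lysozyme shared with macrophages, was at 7608, 4466, 2827 and 2939 CPM, *Cyba* at 2464, 2556, 1907 and 2183 CPM and *Hp* at 2003, 1355, 1812 and 2352 CPM. Without the limit 6 of 12 genes of the specific granule list were higher and 2 lower in Ang2 Ab, and 7 of 13 were higher and 1 lower in EC-Ang2. Of 7 primary granule genes 1 or 2 had enough UMIs, and *Ctsc*, a protease that activates the granule serine proteases, was at 630, 492, 302 and 263 CPM. Of the surface receptors of mature neutrophils, counted over 12 gene rows because *Itgam* has 2, none of 9 tested was higher in Ang2 Ab and 1 was lower (*Il1r2*), while in EC-Ang2 1 of 11 was higher (*Fpr2*) and 1 was lower (*Ly6g*). Without the limit 7 of 10 were higher and none was lower in Ang2 Ab, and 6 of 12 were higher and 3 lower in EC-Ang2. *Il1r2*, the decoy receptor for interleukin-1, was at 1984, 1316, 2325 and 2677 CPM.

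Of the other S100 genes with the limit, 1 of 6 was higher and none was lower in Ang2 Ab, and 2 of 6 were higher and 1 was lower in EC-Ang2, where 18.3% and 24.5% of all genes were higher. *S100a11* was at 2558, 2234, 3621 and 2666 CPM and *S100a6* at 1871, 1972, 2354 and 1579 CPM, both far below *S100a8*. Among the alarmin receptors, *Tlr2* was at 348, 367, 650.3 and 640.4 CPM, and *Tlr4*, the receptor for calprotectin, was at 9.40, 78.7, 84.5 and 89.6 CPM with 1 UMI in mIgG1. Of 6 G-CSF axis genes tested none passed 1.5-fold between mIgG1 and Ang2 Ab, whereas *Jak2* was higher and *Cebpe* lower in EC-Ang2 among 7. The *Cebpe* call rested on 11 UMIs in EC-Ang2 against 13 in Ctrl. Of those 13, 5 came from the 1 Ctrl barcode of 18410 UMIs named above. *Cebpb*, the C/EBP factor of emergency granulopoiesis, was at 8173, 6496, 7546 and 7826 CPM and *Spi1*, which encodes PU.1, at 884, 843, 1058 and 1060 CPM. The protease inhibitor *Slpi* was at 2229, 1309, 1852 and 1764 CPM. Among protease inhibitors and partners 2 of 4 were higher and 2 lower in Ang2 Ab, and none of 4 passed 1.5-fold in EC-Ang2.

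Of 9 inflammatory genes of neutrophils, 6 were at least 1.5-fold higher in Ang2 Ab with the limit and none was lower, with a median log2 ratio of 1.09 against −0.04 for all genes. They were the chemokine genes *Cxcl2*, *Cxcl3*, *Ccl3* and *Ccl4*, the inflammasome sensor *Nlrp3* and the interleukin-1 receptor antagonist *Il1rn*. *Ccl4* was at 592 CPM in mIgG1, from 63 UMIs, and at 4593, 5135 and 4065 CPM in Ang2 Ab, Ctrl and EC-Ang2, so that mIgG1 was the library apart. *Il1b* was at 5116, 6362, 9735 and 8893 CPM. Over all other barcodes of at least 1000 UMIs *Ccl4* was at 469, 1101, 1670 and 363 CPM. *Ccl3* was at 170, 385, 794 and 173 CPM there. The endothelial gate had *Ccl4* at 32.5, 93.1, 97.6 and 29.9 CPM and *Ccl3* at 12.8, 35.9, 45.2 and 19.1 CPM. Both were thus above mIgG1 in the Ang2 Ab library outside the *Csf3r* gate as well. *Cxcl2* differed less, with 317, 424, 429 and 537 CPM over the other barcodes. Whether the difference belongs to the gate was not tested. In EC-Ang2 none of the 9 was higher and 3 were lower (*Cxcl3*, *Tnf* and *Il1rn*). Without the limit 8 of 9 were higher in Ang2 Ab, and in EC-Ang2 2 were higher and 3 lower. Genes were also ranked if they had 100 or more UMIs in both libraries together and at least 3 in each. In the limited gate the largest log2 ratios in Ang2 Ab were those of *Cd274* (3.07), *Cxcl10* (3.01), *Ccl4* (2.95), *Ube2l6* (2.33) and *Il1rn* (2.09). The lowest were those of *Apoe* (−1.92), *Saa3* (−1.91), *H2-Aa* (−1.79), *C1qb* (−1.52) and *Retnlg* (−1.45). In EC-Ang2 the largest were *Chil3* (3.17), *Saa3* (2.45), *AW112010* (2.29), *Prnp* (2.23) and *Klhl6* (1.87), and the lowest were *Camp*, *Ngp*, *Prok2* (−2.90), *C1qb* (−2.67) and *Ltf*. Over the whole gate *Ccl17* (7.84), *Il1f9* (3.65), *Chil1*, *Scgb3a1* (2.53) and *G0s2* (2.47) led the Ang2 Ab side and *Vtn*, *Apoe*, *Pf4*, *Gpnmb* and *Saa3* the mIgG1 side. There *Saa3* (4.07), *Chil3* (3.89), *Gpnmb* (3.43), *Prnp* (2.82) and *Ecm1* (2.62) led the EC-Ang2 side and *Camp*, *Gzma* (−5.74), *Ngp*, *Il17a* (−5.08) and *Slc2a5* (−4.49) the Ctrl side, and *Gzma* and *Il17a* are products of lymphocytes.

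The genes whose pattern was most like that of the members were found by Pearson's r of log2(CPM + 1) with the members' mean over 24 sums (4 libraries by 6 classes of barcodes) among 9954 genes. They were *Mrgpra2b* (0.90), *Wfdc21* (0.90), *Ceacam10* (0.90), *Mrgpra2a* (0.89), *Gm20406* (0.88), *Ninl* (0.87), *Gad1-ps* (0.87), *Cxcr2* (0.87), *Gm8013* (0.87) and *Stfa1* (0.87). The sums share their libraries and their free RNA, and *Mrgpra2a* and *Mrgpra2b* are close copies of each other whose reads may have been split between them. Each sum weighed the same, whatever its number of barcodes. The microglia class (2 or more UMIs of *P2ry12* and *Tmem119*) held only 3, 27, 126 and 19, against 3325, 4297, 3825 and 2618 in the endothelial gate. *Cxcr2* was at 22.1, 87.0, 173 and 353 CPM over the gate and *Wfdc21* at 87.0, 226, 417 and 914 CPM. Several of the others were low, with *Ninl* at 0.763 to 4.07 CPM. Each member's own r with the mean of the other 9 was between 0.70 (*Camp*) and 0.90 (*S100a8*). The classes were set in part by *Csf3r* counts, so the r of *Csf3r* (0.85) follows in part from that rule. *Csf3r* also entered the mean by which the similar genes were ranked.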

How the data were processed

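The authors aligned the reads to mm10 and deposited 1 unfiltered table of UMI counts per library as gene by barcode matrices (the submitters' processing notes name Cell Ranger 2.1.1 and Seurat 2.3.4). The deposited counts are whole numbers and were not normalised, and none of their columns went unused. Here, barcodes with at least 1000 UMIs were kept, with no doublets removed, and the *Csf3r* gate took 2 or more *Csf3r* UMIs with at most 1 of *Cldn5* and *Cdh5*. Counts were summed per library and class and divided by the summed UMIs (CPM). Each condition being 1 library, no test was possible: genes with 20 or more UMIs in both libraries together were counted as higher or lower at 1.5-fold, and a count of 0 was taken to allow 3 counts. Intervals are exact 95% intervals. Shares were also taken after thinning each barcode to 1000 UMIs, and barcodes of 1 to 100 UMIs gave the free RNA.

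The members and gene lists were chosen with earlier results of these data known. Named genes were all members, up to 4 genes of each list with the highest mean level over the gate, the 5 genes highest and lowest in each pair among those with 100 or more UMIs, and the 10 genes most like the members. The ranking in each pair also required at least 3 UMIs in each library. Other genes are named because few passed or because they defined a class, and were chosen after their values were seen. The calculation of ratios and intervals was tested on simulated data. Scores for doublets came from scanpy 1.11.5 and were used only as an alternative. Alternatives were other UMI minimums, gates and folds, doublet scores, a mitochondrial limit, shared barcodes left out, thinning, free RNA subtracted and other scalings. Python 3.11.15, numpy 2.4.6, scipy 1.17.1 and matplotlib 3.10.9 were used.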

Additional observations from a re-analysis of the deposited data

How the results depend on the processing

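No paired analysis was possible because each condition was 1 library. Under the alternatives, 67 recomputed counts, medians and shares moved beyond counting error or 1.5 times and 2 reversed, while among the member ratios 170 stayed within counting error, 135 moved and 35 reversed. The cause was not tested. The gate with the limit combined with *Cxcr2* and *Il1r2*, the limit without early granule barcodes, and the monocyte or macrophage barcodes without neutrophil transcripts were chosen after seeing the data.

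For Ang2 Ab against mIgG1 (6 members higher, 2 lower, median 0.82), 1 was lower with a minimum of 500 UMIs, with the mean of the CPM of individual barcodes, after thinning, at 2-fold and with 50 UMIs, where 9.5%, 26.1%, 18.6%, 3.06% and 6.31% of all genes tested were. None (0) was lower with 1 or more *Csf3r* UMIs, with the *Cxcr2* and *Il1r2* gate (with and without the limit), with no *Cldn5* or *Cdh5* UMI, with doublets removed and without shared barcodes, where 5.37% to 15.2% of genes were. With the limit 1 was higher (18.3% of genes), and 0 (19.3%) without early granule barcodes as well. The median was 1.86 with 1 or more *Csf3r* UMIs, 0.53 with 3 or more, 1.20 with the *Cxcr2* and *Il1r2* gate, 0.60 with that gate and the limit, 1.13 with no *Cldn5* or *Cdh5* UMI, 1.98 with doublets removed and 2.07 without shared barcodes, and it reversed to −0.085 with the limit and to −0.47 without early granule barcodes as well.

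For EC-Ang2 against Ctrl (3 higher, 3 lower, median 0.46), 6 were higher with 3 or more *Csf3r* UMIs (11.1% of genes) and after centring on the median of all genes (16.7%), and 1 (6.26% to 24.5%) with the *Cxcr2* and *Il1r2* gate or the limit, alone or together, or without early granule barcodes. The *Cxcr2* and *Il1r2* gate made 6 lower (14.3%), also with the limit (7.49%). The median was 0.29 at a minimum of 2000 UMIs, 0.082 with 1 or more *Csf3r* UMIs, 0.83 with 3 or more, −0.63 with the *Cxcr2* and *Il1r2* gate and −0.63 with its limit, 0.52 with no *Cldn5* or *Cdh5* UMI, −0.53 with the limit, −0.22 without early granule barcodes and 0.72 after centring.

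The gate's share of barcodes was 10.4%, 9.27%, 13.1% and 14.9% with 1 or more *Csf3r* UMIs and 0.896%, 0.755%, 2.47% and 2.97% with 3 or more. It was 5.597%, 6.98%, 9.23% and 16.7% with the *Cxcr2* and *Il1r2* gate, 1.71%, 1.70%, 3.75% and 4.97% with no *Cldn5* or *Cdh5* UMI, and 0.623%, 1.52%, 2.15% and 4.48% with the limit. At 2000 UMIs it was 1.88% in Ang2 Ab and 4.74% in EC-Ang2, and in Ctrl it was 4.81% at 500 UMIs and 4.87% with doublets removed. The share with 2 or more early granule UMIs was 0 in mIgG1 and 8.98% in Ctrl with the limit, 0 in Ang2 Ab with 3 or more *Csf3r* UMIs or with no *Cldn5* or *Cdh5* UMI, and 2.13% in Ctrl and 1.02% in EC-Ang2 after thinning.

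A member at or past 1.5-fold counts as reversed where its log2 ratio changed sign. By that rule most reversals were in Ang2 Ab, where *Ltf* and *Camp* rested on few UMIs, while *S100a8*, *S100a9*, *Mmp9* and *Retnlg*, under 1.5-fold in EC-Ang2, also turned from above to below 0 there with the limit. *Ltf* was at 2.25 with 1 or more *Csf3r* UMIs, 1.84 with the *Cxcr2* and *Il1r2* gate, 2.63 with that gate and the limit, 1.20 with no *Cldn5* or *Cdh5* UMI, 1.48 with the limit, 1.34 without early granule barcodes as well, 2.32 with doublets removed, 2.25 without shared barcodes, 0.69 as the mean of barcodes and 1.60 after thinning. *Camp* was at 2.44, 1.83, 4.41, 0.78, 0.48, 0.11, 3.00 and 3.25 in the first 8 of these. *Retnlg* was at −0.31 with no *Cldn5* or *Cdh5* UMI, −1.45 with the limit, −2.54 without early granule barcodes as well, −0.35 with the *Cxcr2* and *Il1r2* gate and the limit, −0.46 as the mean of barcodes and −0.41 after thinning. With the limit *S100a8* was at −0.33, *S100a9* at −0.14, *Mmp9* at −0.40 and *Csf3r* at −0.0346, and without early granule barcodes as well *S100a8* was at −0.725, *S100a9* at −0.47 and *Mmp9* at −0.47. For EC-Ang2, *Chil1* was at −0.10 with the limit, −0.16 without early granule barcodes as well and −0.0034 with the *Cxcr2* and *Il1r2* gate and the limit, and *Camp* was at 0.35 without early granule barcodes. That *Camp* value rested on fewer than 20 UMIs and does not count as tested.

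Most UMIs of *Ngp*, *Ltf* and *Camp* lay in few barcodes, so their sums turn on which barcodes a gate takes.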
